A study of Homo sapiens with 4 samples.

Results

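The CDK inhibitor genes and the SKP2 axis were followed on expression arrays of MM.1S cells treated with MLN4924. The members were 9 named genes: the CDK inhibitors CDKN1A, CDKN1B, CDKN1C, CDKN2C and CDKN2D, the phosphatase CDKN3, and the ubiquitin ligase receptor SKP2 with the small CDK-binding proteins CKS1B and CKS2. Every probe set that the array's annotation gave to 1 of these genes was taken, which made 16 of 54675 probe sets and covered 8 of the 9 genes. No probe set was shared between a member and another gene. CDKN2C had no probe set in the annotation used here and was not analysed. Of the remaining genes 7 counted as measured, meaning that the brightest probe set had a geometric mean over the 4 arrays above that of the median probe set (93.9), and CDKN2D did not.

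MM.1S is an established human multiple myeloma line, and the groups were cells given 250 nM MLN4924 for 8, 16 or 24 h and control cells given DMSO, with no culture time on the control label. Each group was 1 array, so no difference has a replicate check and no test between groups was possible. MLN4924 blocks the enzyme that activates NEDD8, the ubiquitin-like protein whose attachment to cullins switches on cullin-RING ubiquitin ligases. Median intensities were 92.2 to 95.4 over the 4 arrays. All 8 plasma cell markers were measured, while among markers of other cell types only 2 of 6 for T and NK cells, 1 of 6 for myeloid cells, 1 of 6 for stromal fibroblasts and 1 of 4 for mature B cells were. The summed intensities of those 4 sets varied by little (447 to 476, 338 to 374, 591 to 600 and 392 to 428).

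CDK inhibitors bind cyclin-dependent kinases and hold the cell cycle back. CDKN1A encodes p21, CDKN1B p27 and CDKN1C p57, which act on cyclin-bound kinases, while the INK4 proteins of CDKN2C and CDKN2D bind CDK4 and CDK6. SKP2 is the F-box protein that, with CKS1B, brings phosphorylated p27 to the CUL1 ligase for destruction, and p21 bound to PCNA is a target of the CUL4 ligase with the receptor DTL. These ligases need NEDD8, so the protein levels of p21 and p27 depend on the step that MLN4924 blocks, whereas the arrays measured only messenger RNA.

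Promoter sequence was given for 8 of the 9 members, all but CDKN1C, and 4 are shown because they hold the motif contrast among the members. They are the 250 bases before a RefSeq start site (GRCh38.p14), 5′ to 3′ on the strand of the gene. Capitals mark CCAAT, the box bound by NF-Y; TTTGAA or TTCGAA, the cell cycle homology region (CHR) of genes expressed late in the cycle; and TTTCGCG or TTTGGCG or TTTCCCG or TTTGCCG, letters of E2F sites, each on either strand (TTCAAA and ATTGG are TTTGAA and CCAAT on the opposite strand). None of these 3 kinds of match overlapped another here. The CKS1B promoter is at chr1:154974431-154974680 (+ strand), that of CKS2 at chr9:89310945-89311194 (+ strand), that of CDKN3 at chr14:54396757-54397006 (+ strand) and that of CDKN1A at chr6:36678464-36678713 (+ strand).
CKS1B: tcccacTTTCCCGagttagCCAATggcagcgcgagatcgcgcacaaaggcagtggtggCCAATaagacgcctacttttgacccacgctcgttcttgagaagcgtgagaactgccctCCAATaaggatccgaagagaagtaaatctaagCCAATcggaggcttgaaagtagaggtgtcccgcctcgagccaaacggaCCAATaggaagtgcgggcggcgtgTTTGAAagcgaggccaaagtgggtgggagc
CKS2: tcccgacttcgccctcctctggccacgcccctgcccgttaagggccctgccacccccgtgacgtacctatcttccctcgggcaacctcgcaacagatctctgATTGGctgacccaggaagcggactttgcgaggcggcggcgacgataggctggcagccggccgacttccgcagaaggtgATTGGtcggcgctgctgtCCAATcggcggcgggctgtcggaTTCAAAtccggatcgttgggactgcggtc
CDKN3: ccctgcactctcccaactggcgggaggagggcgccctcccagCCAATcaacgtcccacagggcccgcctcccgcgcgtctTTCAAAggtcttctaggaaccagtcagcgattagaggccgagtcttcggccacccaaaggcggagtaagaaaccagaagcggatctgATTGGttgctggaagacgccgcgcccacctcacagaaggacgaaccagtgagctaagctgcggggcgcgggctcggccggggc
CDKN1A: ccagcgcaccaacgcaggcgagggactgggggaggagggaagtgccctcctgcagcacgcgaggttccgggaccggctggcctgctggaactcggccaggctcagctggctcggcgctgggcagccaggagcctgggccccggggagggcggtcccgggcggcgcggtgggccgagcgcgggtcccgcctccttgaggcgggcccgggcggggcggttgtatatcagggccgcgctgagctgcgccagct
CKS1B, CKS2 and CDKN3 each held 1 CHR match, while CDKN1A, CDKN1B, SKP2, CDKN2D and the 3 listed CDKN2C starts held 0. Of all 35116 promoters of that length 14.3% held one. The CHR match lay at positions -30 to -25 in CKS1B, -29 to -24 in CKS2 and -170 to -165 in CDKN3, counted back from the start site. CKS1B had 5 CCAAT matches, CKS2 3 and CDKN3 2, against 2 in CDKN1B, 1 in CDKN2D and 0 in CDKN1A and SKP2. Of the 3 CDKN2C starts 1 held 1 match, and 32% of all promoters held at least 1. The E2F letters occurred once, at -244 to -238 in CKS1B, and in 7.33% of all promoters. A match is only a run of letters, and whether a factor was bound was not measured.

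CDKN1A, the gene of p21, had the largest difference from control among the members at 16 h and 24 h when each gene was read from its brightest probe set. At 16 h a dimmer SKP2 probe set lay further below control (-0.79, against -0.67 for CDKN1A). Its single probe set, 202284_s_at, read 1324 in control cells, 1092 after 8 h, 834 after 16 h and 641 after 24 h. Each array was lower than the one before it. The gene (GRCh38.p14 chr6:36676463-36687332) was 1.21-fold lower than control at 8 h (log2 -0.28), 1.59-fold lower at 16 h (-0.67) and 2.07-fold lower at 24 h (-1.05). At 24 h it was number 20 from the lowest of 12446 measured genes, after 218 at 16 h and 1031 at 8 h. The steps were alike in size, with -0.39 for 16 h against 8 h and -0.38 for 24 h against 16 h. These steps do not use the control array but share the single 16 h array, so they are not separate evidence. A stand-in for technical spread was the pooled SD of the differences between measured probe sets of the same gene, over 5719 genes. It was 0.16, 0.19 and 0.18 (log2) for the 8, 16 and 24 h arrays against control and leaves out the spread between cultures. The CDKN1A difference was 1.74, 3.52 and 5.81 times that SD at 8, 16 and 24 h. No second probe set was there to compare it with.

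**Figure D1:**
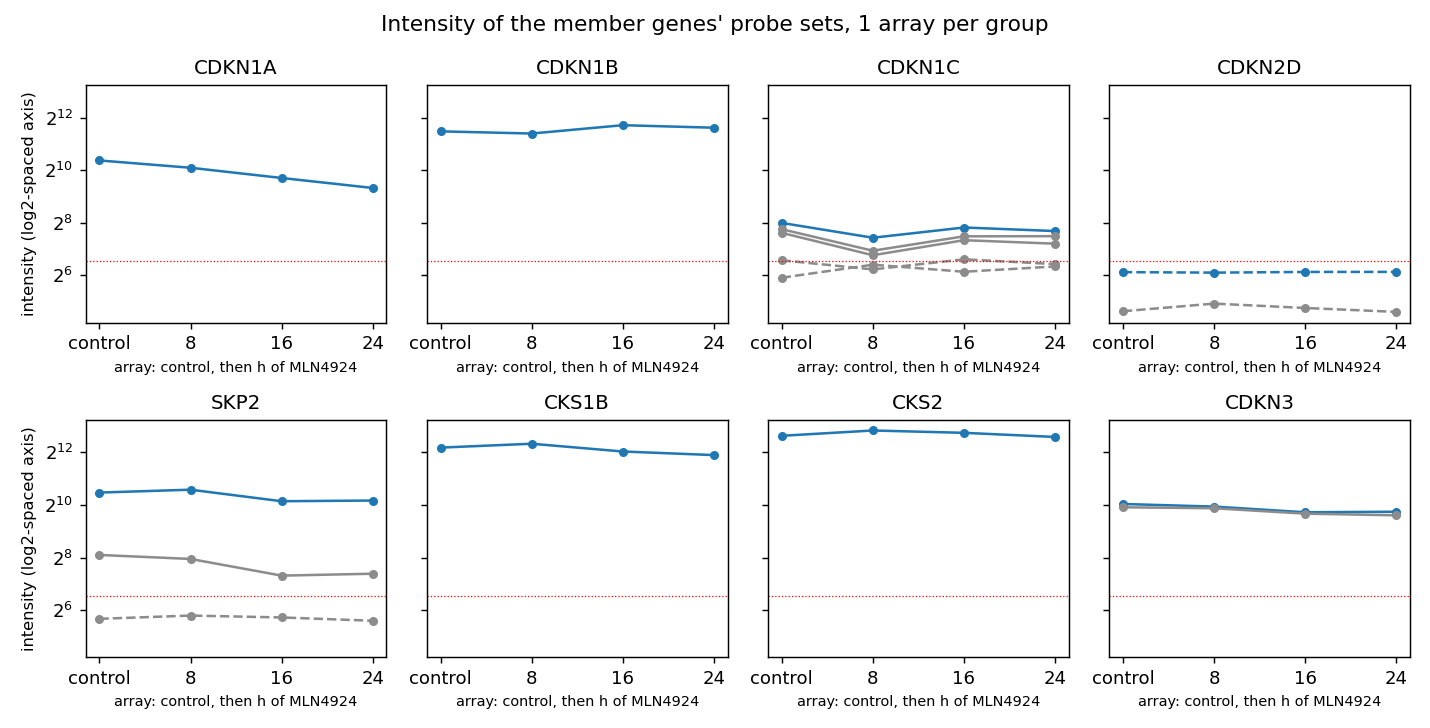
Deposited intensity of each member's probe sets (y axis, log2-spaced) on the control array and after 8, 16 and 24 h of MLN4924 (x axis), 1 array per group. Blue lines are the brightest probe set of a gene, grey lines the others, dashed lines are probe sets below the filter, and the dotted red line is the filter at 93.9; CDKN1A steps down on each array to 641 at 24 h, against 1324 in control.

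CDKN1B, the gene of p27, the main substrate of SKP2, differed little from control. Its probe set (209112_at; gene at chr12:12717368-12722369) read 2851 in control cells, 2691 after 8 h, 3353 after 16 h and 3138 after 24 h, so the later pair of arrays was above the earlier pair. The differences from control were -0.083, 0.23 and 0.14 (log2), at most 1.23 times the probe set SD. The gap between CDKN1A and CDKN1B, taken within the same arrays as the difference of CDKN1A minus that of CDKN1B, came to -0.19, -0.90 and -1.18 (log2) after 8, 16 and 24 h. The kinase inhibitors of the same family thus had unequal differences at the later times, with CDKN1A lower and CDKN1B slightly above control.

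CDKN1C, the gene of p57 (chr11:2883218-2885775), was lowest at 8 h. Its brightest probe set, 216894_x_at, read 255 in control cells, 173 after 8 h, 226 after 16 h and 206 after 24 h. It was 1.48-fold lower than control at 8 h (log2 -0.56, or 3.53 probe set SDs), and the later arrays lay between the 8 h value and the control, at -0.17 and -0.31. The other measured probe sets had the same shape. Probe set 213182_x_at read 216 in control cells, 122 after 8 h, 179 after 16 h and 180 after 24 h (1.76-fold lower at 8 h), and 213348_at read 196, 109, 162 and 148 on the same arrays (1.81-fold lower at 8 h). Of the 5 probe sets, 219533_at, whose mean lay below the filter, went the other way with 60.1 in control cells, 84.8 after 8 h, 70.4 after 16 h and 80.9 after 24 h. The other one below the filter, 219534_x_at, read 95.2, 74.8, 97.7 and 86.1. At 16 h the brightest probe set was 0.39 (log2) above its 8 h value.

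CDKN2D, the gene of the INK4 protein p19, was not shown to be above background on any array. Its brighter probe set, 210240_s_at, read 69.7 in control cells, 68.8 after 8 h, 70.0 after 16 h and 70.1 after 24 h, and the other, 213586_at, lay under the floor of 48.4 on 4 of 4 arrays. These readings were flat, and no level or change can be read from them.

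SKP2, the receptor (chr5:36152111-36193530), was lower on the 16 h and 24 h arrays, by an amount that depended on the probe set. The brightest, 203625_x_at, read 1419 in control cells, 1530 after 8 h, 1129 after 16 h and 1150 after 24 h. The dimmer but measured 210567_s_at read 274 in control cells, 247 after 8 h, 159 after 16 h and 167 after 24 h. On both, the 16 h and 24 h arrays were below the control and the 8 h array. The differences from control were 0.11, -0.33 and -0.30 (log2) at 8, 16 and 24 h by the first, and -0.15, -0.79 and -0.71 by the second, so that the sign at 8 h differed and only the second passed 1.5-fold. The third, 203626_s_at, lay between 48.4 and 55.4 on all 4 arrays, near the floor of 48.4 to which lower values were raised. The main drop lay between the 8 h and 16 h arrays, with -0.44 and -0.63 by the measured pair of probe sets, against 0.026 and 0.072 for 24 h minus 16 h.

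CKS1B and CKS2, the paralogous cofactors that bind CDKs, were highest at 8 h. CKS1B, which SKP2 needs to recognise p27 (201897_s_at; chr1:154974681-154979251), read 4641 in control cells, 5140 after 8 h, 4188 after 16 h and 3811 after 24 h. Its differences from control were 0.15, -0.15 and -0.28 (log2). CKS2 (204170_s_at; chr9:89311195-89316703) read 6336 in control cells, 7289 after 8 h, 6853 after 16 h and 6147 after 24 h, with differences of 0.20, 0.11 and -0.044. The order of the 3 treated arrays was the same in both genes, 8 h above 16 h above 24 h, but at 16 h CKS1B was below its control and CKS2 above it. Neither reached 2 probe set SDs at any time. CKS1B minus CKS2 was -0.055, -0.26 and -0.24 (log2) at 8, 16 and 24 h. SKP2 acts on p27 together with CKS1B. By its brightest probe set, its difference from control minus that of CDKN1B was 0.19, -0.56 and -0.44 (log2) after 8, 16 and 24 h. The other measured SKP2 probe set, 210567_s_at, stood lower against control at each time (-0.15, -0.79 and -0.71), so this gap depends on the probe set. For CKS1B the gap to CDKN1B was 0.23, -0.38 and -0.42.

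CDKN3, a phosphatase that removes the activating phosphate from CDKs (chr14:54397007-54420218), was slightly lower at 16 and 24 h. Its probe sets matched closely. Probe set 1555758_a_at read 1050 in control cells, 980 after 8 h, 844 after 16 h and 856 after 24 h, and 209714_s_at read 963, 939, 814 and 779 on the same arrays. Both put the later arrays below the control by -0.24 to -0.31 (log2), at most 1.66 probe set SDs for the first.

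**Figure D2:**
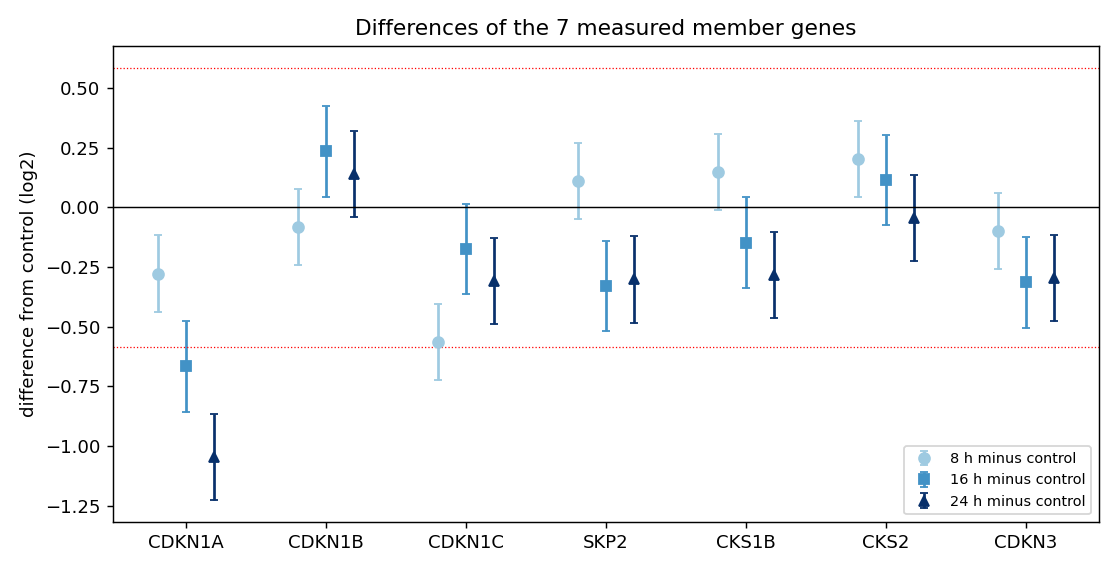
Difference from the control array (y axis, log2) of the 7 measured members at 8, 16 and 24 h, from the brightest probe set of each gene. Bars are 1 pooled SD between probe sets of a gene, which leaves out the spread between cultures, and dotted lines mark 1.5-fold; CDKN1A at 16 h and 24 h (-0.67 and -1.05) lies past the lower line.

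Of the 7 measured members, 0 differed at least 1.5-fold from control at 8 h, where 1.86% of all measured genes did. At 16 h 1 did, CDKN1A, with 4.97% of all genes past that fold, and at 24 h again CDKN1A alone, with 5.16%. CDKN1A was also the 1 member at least 2-fold lower at 24 h, as 0.193% of all genes were. A count of 1 in 7 is too small to be read against these shares. Members more than 2 probe set SDs from control numbered 1 at each time: CDKN1C at 8 h and CDKN1A at 16 h and 24 h, beside 12%, 15.6% and 17.1% of all genes. The 7 had median differences of -0.083, -0.17 and -0.29 (log2) for the 8, 16 and 24 h arrays, beside 0.0071, 0.026 and 0.016 for all measured genes. Below control were 4 of 7 at 8 h, 5 at 16 h and 6 at 24 h. Of all genes 48.3%, 45.7% and 47.4% were. CDKN1B was the exception at 24 h, but CKS2 (-0.044) was only just below control and stood at 0.0082 with quantile normalization. SKP2, above control at 8 h, stood at -0.15 with the median over its probe sets. The 3 comparisons share the control array, so their likeness is no separate evidence.

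The step between 8 h and 16 h, which leaves the control array out, moved the most members. CDKN1A (-0.39) and SKP2 (-0.44) were lower by more than 2 probe set SDs and CDKN1C (0.39) was higher by more. These were 3 of 7 members, beside 14.7% of all genes, again a count too small to be read against that share. The step uses the same single 8 h array as the 8 h differences from control. The CDKN1C rise is therefore no separate evidence beside its low 8 h value (-0.56). CKS1B stood at -0.30 and CDKN1B at 0.32 in the same step. At 24 h against 16 h only CDKN1A (-0.38) of the 7 passed 2 SDs, beside 9.75% of all genes.

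**Figure D3:**
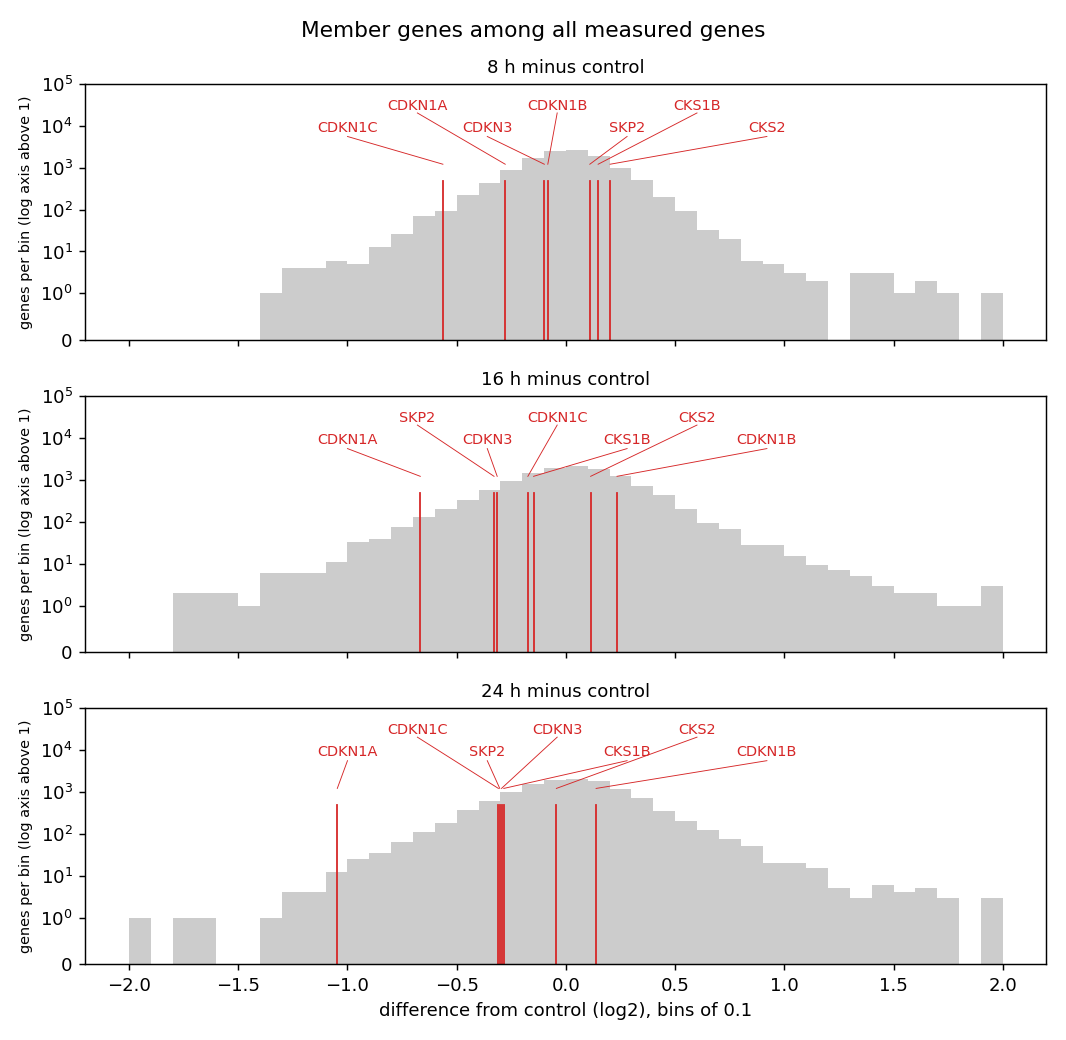
Number of measured genes (y axis, log-spaced above 1) in bins of the difference from control (x axis, log2, values beyond 2 counted in the end bins) at 8, 16 and 24 h, with red lines at the 7 members. CDKN1A lies in the lower tail at 24 h as number 20 of 12446, while the other 6 stay between -0.31 and 0.14.

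Likeness of pattern was measured as the Euclidean distance between the 4 log2 values, each gene centred on its own mean, for the members that spanned at least 0.5 (log2) over the arrays. These were CDKN1A (1.05) and CDKN1C (0.56). Nearest to CDKN1A over the 4 arrays were TNFRSF21, a death receptor of the TNF receptor family (distance 0.10), SH3TC1 (0.12) and NUP58, a nuclear pore protein (0.13). SH3TC1 read 841 in control cells, 718 after 8 h, 559 after 16 h and 458 after 24 h, and NUP58 read 334, 298, 217 and 182. TNFRSF21 read 67.2 at 24 h, below the filter, against 134 in control. Within a distance of 0.2 of CDKN1A lay 21 genes. Nearest to CDKN1C were PRMT6, an arginine methyltransferase (0.035), SGK1, a kinase (0.060), and CFLAR, an inhibitor of caspase-8 (0.063). Within 0.2 of CDKN1C lay 159 genes, but the distance was not scaled for span. The smaller span of CDKN1C can by itself raise that count, so it does not show how common the shape was.

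The genes around the members were read from lists chosen with earlier results of these data known. Some genes stood in more than 1 list, so the medians and counts of the lists are not fully separate. CDK1, CCNA2, CCNB1 and CCNB2 were in both the cyclin and the CHR lists, and CDC20 in the ligase and CHR lists. The list of other SKP2 substrates shared CCNE1 with the cyclins, and FOXO1 and MYC with the transcription factors. Among 16 ligase subunits and factors that act on the CDK inhibitors or on SKP2, all measured, the median stayed at 0.028, 0.029 and 0.0071 (log2) at 8, 16 and 24 h. At 24 h 3 of them were at least 1.5-fold lower and 0 higher, beside 2.31% and 2.85% of all genes. These 3 were DTL, the receptor for p21, PCNA, the clamp that p21 must bind to be recognised, and FBXO5, an inhibitor of the ligase that degrades SKP2. DTL read 3446 in control cells, 3159 after 8 h, 2150 after 16 h and 1824 after 24 h, and its other probe set gave -0.79 at 24 h beside -0.92. PCNA read 7547, 7588, 5116 and 4567 on the same arrays. FBXO5 read 991, 884, 612 and 584. Of the shared core of the SKP2 ligase, SKP1 (0.042) and the scaffold CUL1 (-0.051) lay near control at 24 h. The RING protein RBX1 was lower, at -0.42 at both 16 h and 24 h, short of 1.5-fold.

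The cyclins and kinases that CDK inhibitors bind had 14 of 16 genes measured and medians of 0.11, -0.11 and -0.27 at 8, 16 and 24 h. Below control were 5 at 8 h and 11 at both later times, beside 48.3%, 45.7% and 47.4% of all genes. At 24 h 4 were at least 1.5-fold lower and 0 higher, beside 2.31% and 2.85% of all genes. The D-type cyclin CCND2 read 11264 in control cells, 7149 after 8 h, 7098 after 16 h and 7040 after 24 h. Its 4 measured probe sets were all below control at each time but differed in course, with -0.47, -0.90 and -0.97 (log2) in 231259_s_at and -1.09, -0.79 and -0.79 in 200952_s_at. CCNE2, an E-type cyclin, read 465, 501, 332 and 288 on the same arrays, and CDK4 read 3016, 2609, 2022 and 1914. CDK2, the kinase that p21 and p27 hold in check, stood at -0.62 at 24 h.

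CDKN1A is a textbook p53 target, and other p53 targets went in both directions. Of 21 listed 17 were measured, with medians of -0.033, 0.048 and -0.0065 at 8, 16 and 24 h. At 24 h 8 were above control and 9 below, beside 52.6% and 47.4% of all genes. At least 1.5-fold higher at 24 h was TP53INP1, a stress protein, which read 2187 in control cells, 2969 after 8 h, 4850 after 16 h and 4875 after 24 h, although another measured probe set stood at -0.14. GADD45A, a growth arrest gene, stood at 0.36, 0.61 and 0.57. DDB2, of DNA repair, was the 1 gene at least 1.5-fold lower at 24 h (-0.65). By that fold 2.85% of all genes were higher and 2.31% lower at 24 h. A count of 1 in 17 each way is too small to be read against these shares. AEN, a nuclease gene, stood at -0.074, -0.51 and -0.54, and FAS, a death receptor, at 0.084, -0.29 and -0.45. In the other direction at 24 h, SESN1 stood at -0.26, 0.31 and 0.55 and CCNG1 at 0.13, 0.38 and 0.44. MDM2, the ligase of p53, stood at -0.0065 at 24 h.

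**Figure D4:**
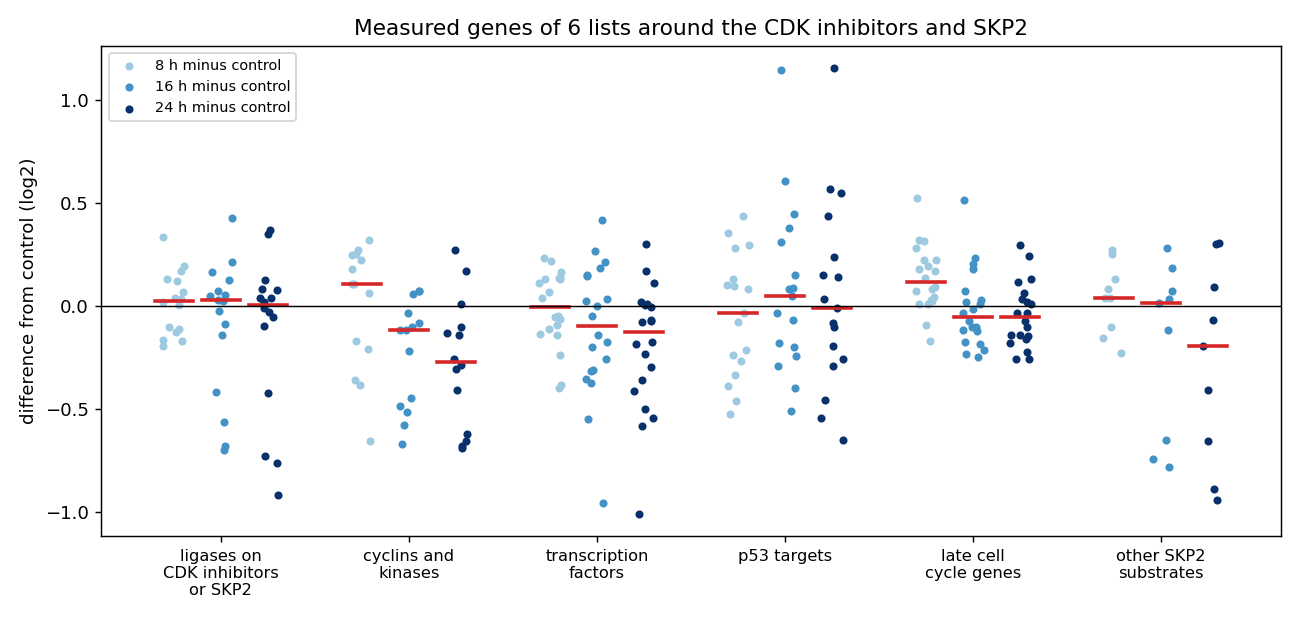
Difference from control (y axis, log2) of each measured gene in 6 lists around the members at 8, 16 and 24 h, with red bars at the medians. The cyclins and kinases go down to a median of -0.27 at 24 h, while the ligases and the p53 targets keep medians near 0 with a few genes far below or above.

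Transcription factors known to act on these genes had 20 of 22 measured and medians of -0.0043, -0.095 and -0.13. E2F2, a cell cycle activator, was the 1 factor at least 1.5-fold lower at 16 h and at 24 h (2.73% and 2.31% of all genes), with 1366 in control cells, 1046 after 8 h, 704 after 16 h and 679 after 24 h. Its other measured probe set, 207042_at, stood at -0.44 at 16 h, short of 1.5-fold, and at -0.80 at 24 h. MYBL2 and LIN54, parts of the complexes that act at CHR sites, stood at -0.54 and -0.58 at 24 h. FOXO3, which switches on CDKN1B, stood at 0.0070 and MYC, which holds CDKN1A down, at -0.065 at 24 h.

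The late cell cycle genes of the CHR class, to which CKS1B, CKS2 and CDKN3 are commonly counted, gave 18 of 20 above control at 8 h, with a median of 0.12, beside 51.7% of all genes above control. KIF20A, a mitotic kinesin, stood at 0.53, CCNB1, a mitotic cyclin, at 0.32 and CENPA, the centromere histone, at 0.32. CKS1B (0.15) and CKS2 (0.20) were above control on that array too, and CDKN3 (-0.099) was not. At 16 and 24 h the medians of the 20 were -0.053 and -0.051, and 0 passed 1.5-fold at any of the 3 times. Of all genes 1.86%, 4.97% and 5.16% did at 8, 16 and 24 h. Beside such small shares a count of 0 in 20 does not set the list apart. A CHR match was present in 9 of the 16 genes of this list with a promoter sequence, beside 14.3% of all promoters. The 2 shares differ in unit, since a gene counted when any of its promoters held a match. The list was also chosen as CHR genes, so a high count was set in advance.

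Of other SKP2 substrates and partners 9 of 10 were measured, with medians of 0.039, 0.014 and -0.19, and 3 were at least 1.5-fold lower at 24 h, beside 2.31% of all genes. ORC1, of the replication origin complex, read 349 in control cells, 370 after 8 h, 209 after 16 h and 189 after 24 h. CDT1, a licensing factor, stood at -0.94 at 24 h and RBL1, a pocket protein, at -0.65 (-0.35 in its other measured probe set), while the related RBL2 stood at 0.31. Among CDK inhibitor genes outside the members, CDKN2A read 1331 in control cells, 1491 after 8 h, 999 after 16 h and 915 after 24 h, but 1 of its 3 measured probe sets had the opposite sign at 24 h (0.34). CDKN2B did not count as measured.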

How the data were processed

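Trizol-extracted total RNA of MM.1S cells was converted to biotinylated cRNA for Affymetrix arrays, per the labels' protocols. The values deposited by the authors are linear intensities per probe set; how they were summarised and normalized is not given in the sources used here. The array medians differed by at most 0.048 (log2), and no normalization was added. Values below 48.4, the 25th percentile, were set to it before taking log2. Each gene was read from its brightest probe set among the 41097 with 1 gene in the array's annotation, and 12446 of 19775 genes counted as measured. Single arrays per group allowed no test. A difference of 1.5-fold was the threshold for counts, which were set beside those of all measured genes. The calling step was also run on simulated data. The members, lists, named-gene rule and threshold were chosen with earlier results of these data known. The rule named all members, the 3 largest differences per list and the 3 nearest patterns. List genes named beyond the rule, among them RBX1, CDK2, MDM2, AEN, FAS, SESN1, CCNG1 and FOXO3, were chosen after their values were seen. Promoters and genome positions are from RefSeq (GRCh38.p14). Python 3.11.15 and pandas 2.3.3 were used. Alternatives covered the probe set rule, floor, normalization, filter, probe set class and fold.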

Additional observations from a re-analysis of the deposited data

How the results depend on the processing

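The number of members at least 1.5-fold from control rests on 1 or 2 genes and moved with the processing. At 8 h it was 1 in place of 0 (CDKN1C) when a gene's probe sets were combined by their median, with median centring, and without probe sets named _x_at or _s_at. At 16 h it was 2 with the median over probe sets (CDKN1A and SKP2) and 0 both without those probe sets and with a fold of 2. At 24 h it was 2 with the median over probe sets and 0 without those probe sets, which removed CDKN1A and left 3 measured members. The medians over the members moved by less than the probe set SD in every alternative run. That SD is for single probe sets, and the small 8 h median changed sign with the filter at the 75th percentile (0.013, against -0.083). Of 153 values for single members under alternatives, 148 moved by less than that SD and 5 by more, and 2 had another sign. The 5 were SKP2 with the median over probe sets (-0.15, -0.79 and -0.71 at 8, 16 and 24 h) and CDKN1C at 8 h (-0.85, under 2 alternatives). CDKN1A stood between -1.09 and -1.05 at 24 h in the 7 alternatives that measured it. No paired analysis was possible because each group has 1 array. Dim probe sets, such as those of CDKN2D, limit what can be read.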
